A study of Mus musculus with 9 samples.

Results

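The secreted Wnt antagonists examined here were the products of 8 genes: the secreted frizzled-related proteins Sfrp1, Sfrp2, Sfrp4 and Frzb, the Dickkopf proteins Dkk1, Dkk2 and Dkk3, and the Wnt inhibitory factor Wif1. They were chosen by gene symbol, 8 of 18193 genes with a symbol of their own, and all probe sets with these symbols were taken, 15 of the 45037 non-control probe sets on the arrays. Expression was measured on 9 Affymetrix mouse arrays of total RNA from spontaneously immortalised fibroblasts (MEFs) taken from E13.5 embryos. The first line, from Suv420h1 knockout embryos (gene symbol Kmt5b, a histone H4 lysine methyltransferase), was measured as the reconstituted null line with a Suv420h1-GFP fusion (1 array) and as the null line with GFP or with no construct named in its label, called untransduced here (2 arrays). The wild-type cells carried PREX2 truncated by the stop mutations K278*, E824* or Q1430* (3 arrays, delivered by lentivirus, per the labels), full-length PREX2 (1 array), or GFP or LacZ as control vectors (2 arrays). PREX2 activates the small GTPase Rac.

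Wnt proteins are secreted lipid-modified ligands that bind Frizzled receptors together with the co-receptors Lrp5 and Lrp6, and in the canonical branch this stabilises beta-catenin. The Sfrp proteins and Frzb carry a cysteine-rich domain like that of Frizzled and bind Wnt ligands outside the cell, as Wif1 does through a different domain. Dkk1 and Dkk2 bind the co-receptors instead, while Dkk3 is a divergent family member. Fibroblasts are a common source of these inhibitors, which are known to differ between fibroblasts of different body sites.

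The sequences shown first are the 250 bases before an annotated start of Sfrp2, the member with the largest difference between the lines, and of Dkk2, the only Dickkopf gene above the signal minimum. Both come from RefSeq, build GRCm38.p6, plus strand, at chr3:83766071-83766320 and chr3:132085042-132085291, and capitals mark CpG dinucleotides. The annotated genes begin earlier, at 83765750 for Sfrp2 and 132085266 for Dkk2. The Sfrp2 window thus lies inside its annotated gene, and the end of the Dkk2 window overlaps its own.
Sfrp2: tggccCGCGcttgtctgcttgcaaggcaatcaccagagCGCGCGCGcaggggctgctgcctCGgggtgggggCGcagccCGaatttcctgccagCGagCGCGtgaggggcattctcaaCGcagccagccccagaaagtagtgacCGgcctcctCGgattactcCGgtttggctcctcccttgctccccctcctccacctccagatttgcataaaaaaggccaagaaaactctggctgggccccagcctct
Dkk2: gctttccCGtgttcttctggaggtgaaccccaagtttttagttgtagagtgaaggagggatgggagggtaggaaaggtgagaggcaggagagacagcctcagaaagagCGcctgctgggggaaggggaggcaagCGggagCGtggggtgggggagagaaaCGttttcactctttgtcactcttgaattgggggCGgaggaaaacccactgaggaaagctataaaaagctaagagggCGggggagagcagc
The Sfrp2 window held 16 CpG dinucleotides and the Dkk2 window 7, against a median of 6 over 32851 windows of this length. Other motifs were searched on both strands as exact letters, namely the TATA box TATAAA, the TCF/LEF core CTTTGA and the GC box GGGCGG, which itself contains a CpG. The Dkk2 window held TATAAA starting 32 bases before the start and GGGCGG at 60 and 17 bases before it. The Sfrp2 window held none of these letters. Over all windows 12.4% held TATAAA, 13.8% CTTTGA and 32.7% GGGCGG. Windows of Frzb, Dkk1 and Wif1 were also found, and Dkk1 held CTTTGA at 2 places and Frzb at 1.

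The signals are MAS5 intensities on a linear scale, and their trimmed mean was 500 on every array. Tests were limited to the 19090 probe sets whose mean signal reached 100. Of the 15 member probe sets 8 were tested: the 5 of Sfrp1 (chromosome 8) and those of Sfrp2 (chromosome 3), Sfrp4 (chromosome 13) and Dkk2 (chromosome 3). The 7 others, of Frzb (chromosome 2), Dkk1 (chromosome 19), Dkk3 (chromosome 7) and Wif1 (chromosome 10), lay under the minimum. Changes are differences of log2(signal + 25) from a limma fit over all tested probe sets, with Benjamini-Hochberg adjustment. Signals of different probe sets are not comparable as levels, since probes differ in brightness. Within each line no construct was used on more than 1 array, and the labels name no separate cultures. P-values thus cover only the spread between the arrays of a group, which differ in construct. Differences between constructs and between arrays, which may be technical, are mixed in that spread. The labels do not say how many independent lines of each genotype were used, so genotype and line cannot be told apart.

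Of the 5 probe sets of the deleted gene Kmt5b, 1451817_at followed the labels, with 150.3 on the reconstituted array, 17.3 with GFP and 8.85 untransduced in the null line, against 118 to 182 in the wild-type line; the other 4 read 52.5 or more on every null-line array, and the labels do not say which exons were deleted. The Prex2 probe set 1436569_at read 703 to 809 on the arrays with a PREX2 construct, 677 with LacZ and 452 with GFP. The dim Prex2 probe set 1432047_at read 43.9 or less on every array. The wild-type GFP array stood apart from most of its line. It differed from LacZ by more than 2-fold at 1301 of 19090 tested probe sets, against 65 between Q1430* and LacZ and 81 between the GFP and untransduced null arrays. Of 13 fibroblast markers, all had a probe set, and their summed signal was 128907 to 138344 in the null line, 132420 on the wild-type GFP array and 144047 to 196675 on the other wild-type arrays. Thy1, a fibroblast surface marker, was nearly absent in the null line (6.90 to 27.3) and read 1097 or more in the wild-type line. Markers of other cell types were mixed. Of 5 endothelial markers Pecam1, Cdh5 and Tie1 read 49.8 or less on every array, while Tek reached 488, and the list summed to 119 to 229 in the null line and 198 to 604 in the wild-type line. Of 4 macrophage markers the leukocyte gene Ptprc read 25.9 or less, while Csf1r read 198 to 206 in the null line and 294 to 544 in the wild-type line, and the list summed to 340 to 381 in the null line and 517 to 715 in the wild-type line. Of 5 epithelial markers Cdh1 read 54.6 or less and Epcam 162 to 432, and the list summed to 471 to 559 in the null line and 584 to 641 in the wild-type line. The 4 neural markers summed to 229 to 411 in the null line and 1055 to 2224 in the wild-type line, mostly from Map2. Of 3 chondrocyte markers Col2a1 read 384 to 1034 in the null line and 4.19 to 49.8 in the wild-type line, Sox9 411 to 500 in the null line and 540.0 to 690 in the wild-type line, and Acan overlapped. Of 3 adipocyte markers Pparg read 286 to 608 in the null line and 50.1 to 91.3 in the wild-type line, Fabp4 94.8 to 264 in the null line and 277 to 391 in the wild-type line, and Adipoq 27.5 or less on every array. The sums of 3 skeletal muscle markers and of the 2 osteoblast markers with a probe set overlapped between the lines. The part that these shifts have in the results was not tested. In bulk RNA, fewer cells that express a gene and less RNA of it per cell cannot be told apart.

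**Figure D1:**
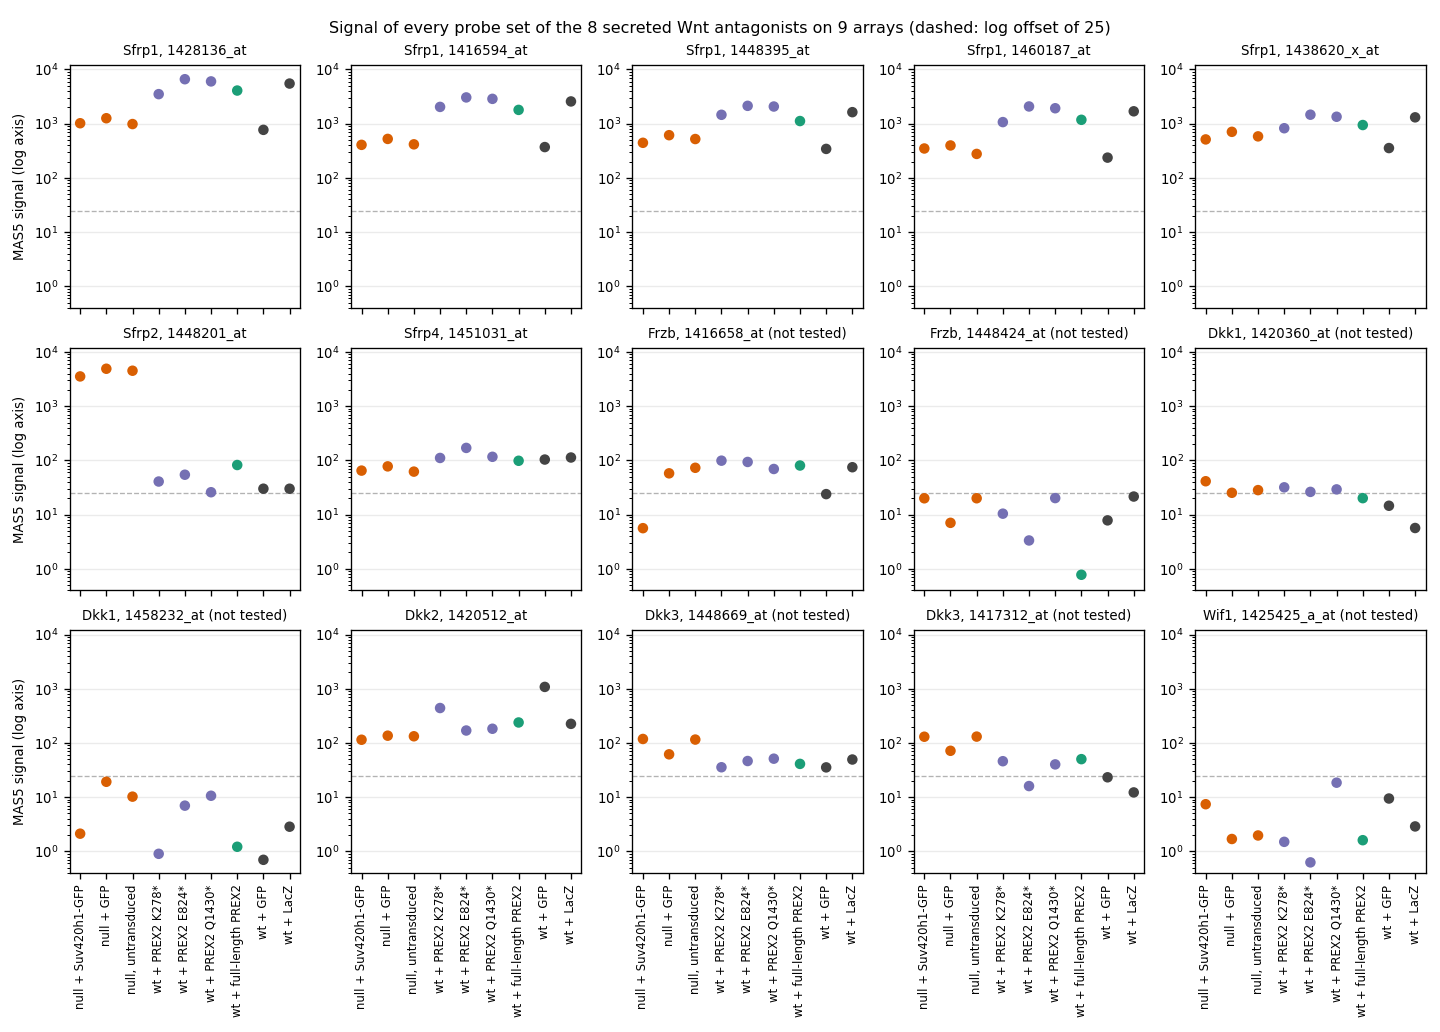
MAS5 signal (log axis) of the 15 probe sets of the 8 genes on each of the 9 arrays. Orange points are null-line arrays, purple truncated PREX2, green full-length PREX2 and dark grey control vectors; Sfrp2 is high on all 3 null-line arrays, between 3542 and 4910, and at most 82.2 on the 6 wild-type-line arrays.

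The null line was first set against the wild-type control vectors, to see what differs where Suv420h1 is missing. Sfrp2 was the member that rose: its signal was 4910 with GFP and 4513 untransduced in the null line, against 30.1 on GFP and 30.0 on LacZ wild-type arrays. The groups lay far apart. The mean signals were 4712 ± 281 in the null line and 30.0 ± 0.0198 with control vector (SD, n = 2 each), and the other 4 wild-type-line arrays, which read 25.9 to 82.2, spread more widely than the 2 controls. On the log2 scale Sfrp2 rose by 6.43 (SE 0.225, 2 against 2 arrays, limma adjusted p = 1.18e-05), or 86.0-fold. The control signals lay below the median signal of those arrays (56.4 and 62.3) and close to the offset of 25, so the size of the fold depends on the offset. Sfrp2 passed the signal minimum only through its null-line arrays. None of the other 7 tested probe sets passed, so 1 of 8 was called, beside 19.7% of all 19090 tested probe sets in this comparison (10.7% higher and 8.94% lower).

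Sfrp1 is measured by 5 probe sets, of which 1416594_at, 1448395_at and 1460187_at were designed from the same sequence record, so they are not independent readings. Its brightest probe set, 1428136_at, read 1261 with GFP and 985 untransduced in the null line, against 770 on GFP and 5502 on LacZ wild-type arrays. The control arrays thus lay on both sides of the null line and spanned a wider range than any difference between the groups. With both control arrays in the fit, the log2 changes of the 5 probe sets ran from -1.04 to -0.09 and none passed (SE 0.541 to 0.783). Which control array was used decided the direction. Without the wild-type GFP array all 5 changes were below 0, down to -2.40. Without LacZ they ran from 0.32 to 0.81, and each of these fits left a single control array.

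Dkk2 went the other way on the control arrays. It read 136 with GFP and 133 untransduced in the null line, against 1080 on GFP and 225 on LacZ wild-type arrays, so every null array was below both controls. Its log2 change was -1.72 (SE 0.682), which did not pass (adjusted p = 0.121). Without LacZ the change was -2.79 and without the GFP control it was -0.65, in fits that left a single control array.

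Sfrp4 was dim. It read 77.6 with GFP and 62.1 untransduced in the null line, against 104 on GFP and 113 on LacZ wild-type arrays. Its log2 change was -0.50 (SE 0.246, adjusted p = 0.201).

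All 9 arrays were next split by line, with 3 null-line arrays, whatever they carried, against 6 wild-type-line arrays. This comparison shares arrays with the previous comparison and is no independent support of it. Sfrp2 read 3542 on the reconstituted array, and its null-line median was 4513 (lowest 3542, highest 4910), against a wild-type-line median of 35.4 (lowest 25.9, highest 82.2). The lines did not overlap. The log2 change was 6.02 (SE 0.159, 3 against 6 arrays, limma adjusted p = 1.49e-06), and it stayed between 5.92 and 6.07 when any single array of the groups with replicates was left out.

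Over the 8 tested probe sets 1 rose and 4 fell by line, belonging to 3 of the 4 genes tested, beside 37.6% called among all tested probe sets (19.5% higher and 18.1% lower). Of the Sfrp1 probe sets 3 of 5 fell, with log2 changes of -1.94 at 1416594_at (SE 0.522, adjusted p = 0.0235), -1.74 at 1428136_at (SE 0.554, adjusted p = 0.0425) and -1.68 at 1460187_at (SE 0.548, adjusted p = 0.0462). The other probe sets were at -1.24 (1448395_at, adjusted p = 0.0540) and -0.65 (1438620_x_at, adjusted p = 0.220). At 1428136_at the null-line signals were 985 to 1261 (median 1019), against 770 to 6618 (median 4795) in the wild-type line, and only the GFP array overlapped the null line, since the other 5 wild-type-line arrays read 3510 or more. On all 5 probe sets the wild-type GFP array was the lowest of the 9. Without that array all 5 passed, with log2 changes of -2.38 to -0.92, beside 43.7% of all tested probe sets. Without LacZ 4 passed, beside 43.2%. The calls of 1428136_at and 1460187_at ended with no signal minimum and with no intensity trend in the variance. Without either null array, or without E824* or Q1430*, 0 of the 5 passed, though all changes were below 0. The share over all tested probe sets was then also lower. It was 23.7% without the untransduced null array, 22.7% without the GFP null array, 30.7% without E824* and 28.2% without Q1430*. Without K278* 1 passed, beside 38.6%, again with all changes below 0.

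Sfrp4 fell by 0.61 between the lines (SE 0.174, adjusted p = 0.0287). It read 64.8 on the reconstituted array, 77.6 with GFP and 62.1 untransduced, against 111 with K278*, 170 with E824*, 117 with Q1430*, 98.4 with full-length PREX2, 104 with GFP and 113 with LacZ. The lines did not overlap, but the mean of 102 over the 9 arrays was just above the minimum of 100. Sfrp4 reached that minimum only through the wild-type line, where it was higher. The call ended without either null array, without E824* or Q1430*, and with no signal minimum (adjusted p = 0.0666).

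Dkk2 read 114 to 136 in the null line (median 133), against 169 to 1080 (median 231) in the wild-type line. The lines did not overlap, yet the difference of -1.13 (SE 0.482) did not pass (adjusted p = 0.105). Without LacZ it was -1.21, in a fit that left a single control array. The wild-type GFP array (1080) stood far above K278* (440), the next highest, and so widened the difference between the lines. Lines that do not overlap were common. Of the 8 tested probe sets 3 showed this, Sfrp2 being higher and Sfrp4 and Dkk2 lower in the null line, beside 40.5% of all tested probe sets (21.4% higher and 19.1% lower).

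**Figure D2:**
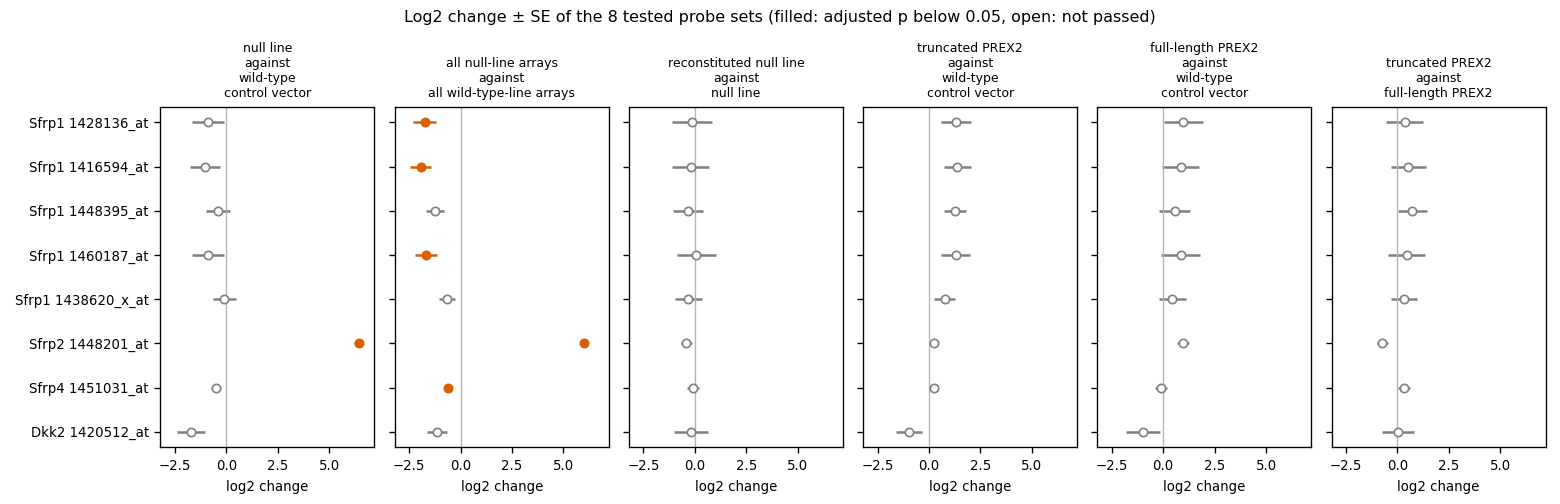
Log2 change with its SE of the 8 tested probe sets in each of the 6 comparisons, filled where the adjusted p was below 0.05. Filled points appear only for Sfrp2 (6.43) in the null line against wild-type control vector, and for Sfrp2, Sfrp4 and 3 Sfrp1 probe sets in the split by line.

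The reconstituted line was set against the null line, to see what changes when Suv420h1-GFP is put back. No member passed the test. Sfrp2 read 3542 in the reconstituted line, against 4910 with GFP and 4513 untransduced in the null line, all far above the highest wild-type-line signal of 82.2. Its log2 difference of -0.41 (SE 0.275, 1 array against 2) missed the threshold. Sfrp1 at 1428136_at read 1019 in the reconstituted line, against 1261 with GFP and 985 untransduced in the null line. Over the 8 probe sets 0 passed in limma and 0 had an unadjusted p below 0.05, and over all 19090 probe sets 0 passed (0% called) and 621 had an unadjusted p below 0.05. The dim Frzb probe set 1416658_at, under the signal minimum, read 5.62 in the reconstituted line, against 57.7 with GFP and 73.1 untransduced in the null line.

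The PREX2 constructs were set against the control vectors. With truncated PREX2, Sfrp1 at 1428136_at read 3510 with K278*, 6618 with E824* and 6030 with Q1430*, against 770 with GFP and 5502 with LacZ. The truncated arrays spanned the LacZ value and all lay above GFP. The 5 probe sets differed by 0.75 to 1.38 on the log2 scale, and none passed with both control arrays in the fit. Without the GFP control array they ran from -0.15 to 0.19, and without LacZ from 1.66 to 2.74, in fits that leave a single control array. The sign and size of this difference thus moved with the control array used.

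Dkk2 read 440 with K278*, 169 with E824* and 182 with Q1430*, against 1080 with GFP and 225 with LacZ. The log2 difference was -0.98 (SE 0.623, adjusted p = 0.844), and 0.09 without the GFP control array. Over the 8 probe sets 0 passed and 0 had an unadjusted p below 0.05; over all tested probe sets 1 passed, which is 0.00524%.

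With full-length PREX2, Sfrp1 at 1428136_at read 4089 and Dkk2 238, both between the GFP and LacZ values. Without the GFP control array the Sfrp1 differences ran from -0.53 to -0.43, and without LacZ from 1.35 to 2.37, again in fits that leave a single control array. Sfrp2, dim in this line, read 82.2 with full-length PREX2, against 30.1 with GFP and 30.0 with LacZ. That was a log2 difference of 0.96 (SE 0.275, 1 against 2 arrays), with an unadjusted p of 0.00917 that did not pass adjustment (adjusted p near 1), and it was the only member probe set with an unadjusted p below 0.05. Over all tested probe sets 0 passed (0%) and 269 had an unadjusted p below 0.05. Truncated against full-length PREX2 gave -0.74 for Sfrp2 (SE 0.259, unadjusted p = 0.0234), with 40.8, 54.4 and 25.9 on the truncated arrays against 82.2 on the full-length array. No member passed there either, nor did any of the 19090 probe sets (0%), of which 241 had an unadjusted p below 0.05.

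Within the wild-type line the signals of Dkk2 and of the brightest Sfrp1 probe set ran in opposite orders. From high to low, Sfrp1 at 1428136_at stood at E824* (6618), Q1430* (6030), LacZ (5502), full-length PREX2 (4089), K278* (3510) and GFP (770). Dkk2 was highest on GFP (1080), then K278* (440), full-length PREX2 (238), LacZ (225), Q1430* (182) and E824* (169), the reverse order. At 2 of the other 4 Sfrp1 probe sets, 1416594_at and 1448395_at, K278* stood above full-length PREX2, so the reversal was not exact there. The neighbours E824*, Q1430* and LacZ differed from each other by at most 0.38 log2 units at any Sfrp1 probe set, whereas GFP minus LacZ was -2.80 to -1.81. These 6 arrays are not replicates, and no test was made of the order.

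**Figure D3:**
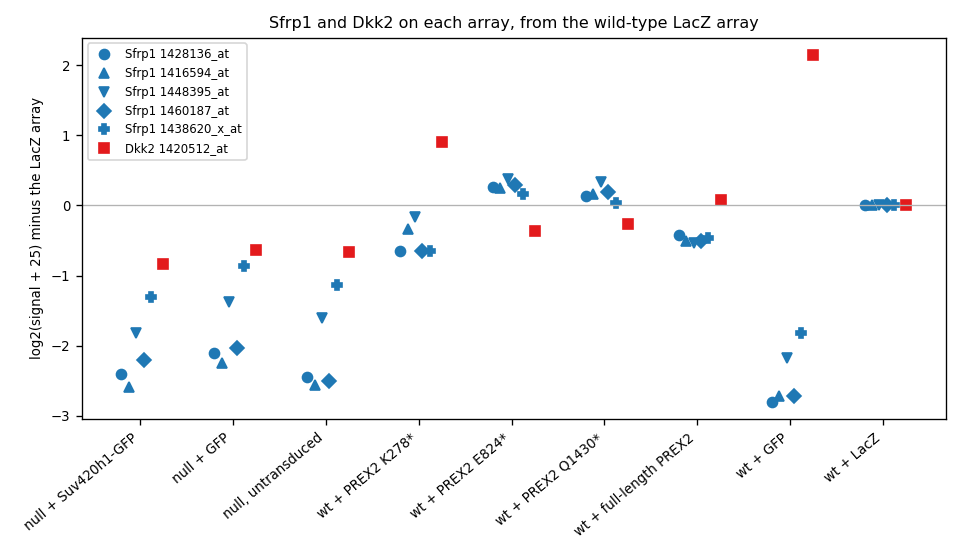
Log2(signal + 25) minus the value on the wild-type LacZ array for the 5 Sfrp1 probe sets (blue) and the Dkk2 probe set (red) on each array. On the wild-type GFP array Sfrp1 is at -2.80 to -1.81, lower than on any null-line array, while Dkk2 is at 2.15.

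The members under the signal minimum were also read on every array. Dkk3 read 118 on the reconstituted array, 61.6 with GFP and 115 untransduced in the null line, against 35.4 to 51.2 (median 43.7) in the wild-type line at 1448669_at. At 1417312_at the null-line signals were 71.5 to 131, against 12.2 to 50.2 (median 31.7) in the wild-type line. Both probe sets of the gene separated the lines with no overlap, as did 11.6% of the 25947 probe sets under the minimum (8.95% higher in the null line). Fitted without the minimum, Dkk3 rose between the lines at 1448669_at by 0.83 (SE 0.226, adjusted p = 0.0409) and at 1417312_at by 1.29 (SE 0.268, adjusted p = 0.0138), beside 17.9% called among 45037; in the null line against control vector neither passed, with 7.55% called (adjusted p = 0.245 and 0.0508).

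Frzb at 1416658_at read 5.62 to 73.1 in the null line and 23.9 to 98.9 in the wild-type line, overlapping widely, with GFP lowest of the wild-type line. Its other probe set stayed at 21.5 or less on all 9 arrays. The probe sets of Dkk1 reached 41.3 and 19.2 at most. Wif1 reached 18.5 at most, on the Q1430* array.

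Other genes of the pathway were described from lists of Wnt ligands, receptors, modulators, intracellular components and beta-catenin targets. In the null line against wild-type control vector, where 19.7% of all tested probe sets were called (10.7% higher and 8.94% lower), 0 of 4 tested ligands passed. Of 14 receptors and co-receptors 2 rose, the Frizzled receptors Fzd6 by 1.73 (SE 0.238, adjusted p = 0.00346) and Fzd8 by 1.02, and 2 fell, the Wnt5a receptor Ror1 by 1.40 and the kinase-related receptor Ryk by 0.72, or 28.6% called. Of 12 other secreted or surface modulators 5 rose and 0 fell: Cthrc1, a secreted matrix protein, by 2.97 (SE 0.328, adjusted p = 0.00139), the glypican Gpc4 by 1.57, the R-spondin receptors Lgr4 by 1.46 and Lgr6 by 1.39, and Apcdd1, a membrane inhibitor of Wnt signalling, by 0.96, or 41.7% called. Fzd6 and Cthrc1 passed the signal minimum only through the null line, with 305 to 477 in the null line and 48.0 to 98.9 in the wild-type line for Fzd6, and 262 to 382 in the null line and 4.33 to 28.9 in the wild-type line for Cthrc1. Lgr6 also passed the minimum only through the null line. It read 192 to 304 in the null line and 29.6 to 149 in the wild-type line, with only GFP above 54.0 there. The sizes of the Cthrc1 and Lgr6 changes therefore depend on the offset of 25. Of 24 intracellular components 1 rose (Vangl1, a planar polarity protein, 1.02) and 2 fell (Ctnnbip1, an inhibitor of beta-catenin, -0.84, and the kinase Csnk1a1, -0.44), or 12.5% called. Of 13 beta-catenin target genes 2 rose, Fgf18 by 2.15 and Apcdd1, and Bambi, a pseudoreceptor that inhibits TGF-beta signalling, fell by 1.74, or 23.1% called. The share was below that of all tested probe sets for the intracellular list and near it for the targets.

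The list medians were 0.40 for ligands, 0.29 for receptors, 0.84 for modulators, 0.02 for intracellular components and 0.52 for targets, beside -0.00214 over all tested probe sets. Leaving out the wild-type GFP array gave medians of 0.30 for modulators, -0.09 for receptors and 0.24 for targets. The changes of Fzd8, Gpc4, Vangl1 and Fgf18 shrank to 0.76, 0.86, 0.82 and 1.36. Leaving out LacZ gave medians of 0.95 for modulators, 0.59 for receptors and 0.55 for targets, and changes of -0.77 for Ror1 and 0.79 for Lgr6. Without the untransduced null array the changes were 1.47 for Fzd6, 1.28 for Fzd8, 2.85 for Cthrc1 and -1.89 for Bambi. With the GFP null array left out instead they were 1.99, 0.76, 3.09 and -1.58. All of these fits left a single null or control array, so they cannot show which calls hold. In the reconstitution and PREX2 comparisons 0 genes of these lists passed.

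In the split by line, with 37.6% of all tested probe sets called, 1 of 4 ligands rose and 1 fell, 4 of 14 receptors rose and 2 fell, 6 of 12 modulators rose and 1 fell, 2 of 24 intracellular components rose and 3 fell, and 5 of 13 targets rose and 2 fell. The ligands, named after their values were seen, were Wnt9a, which rose by 0.65 (SE 0.199, adjusted p = 0.0377), and Wnt4, which fell by 2.52 (SE 0.605, adjusted p = 0.0153). Wnt4 read 161 to 276 in the null line, against 270 with GFP and 1010 to 2774 with every other construct in the wild-type line. Both calls ended without either null array, and that of Wnt9a also without E824* or Q1430*. Without the untransduced null array 3 receptors and 3 modulators rose, and 2 receptors, 1 modulator, 2 intracellular components and 2 targets fell. That refit called 23.7% of all tested probe sets. Without the GFP null array 1 receptor and 3 modulators rose, and 2 receptors, 1 modulator, 3 intracellular components and 2 targets fell, beside 22.7%. In both refits 0 genes of the other lists rose. Without Q1430* 4 modulators and 2 targets rose and 1 modulator and 2 targets fell, beside 28.2%. Without E824* 3 targets rose and 2 fell, beside 30.7%. Without the wild-type GFP array 4 intracellular components rose and 5 fell, beside 43.7%, and without LacZ 5 rose and 4 fell, beside 43.2%.

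**Figure D4:**
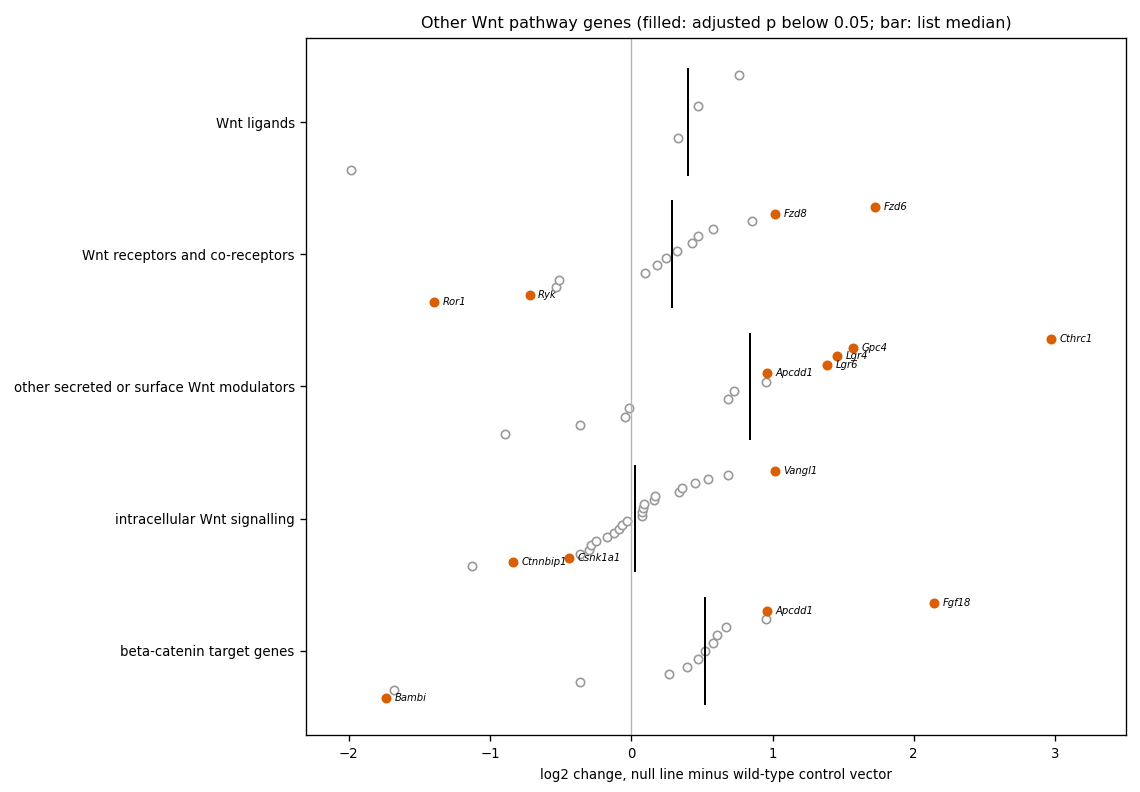
Log2 change of other Wnt pathway genes between the null line and wild-type control vector, by list, with filled points where the adjusted p was below 0.05 and a bar at the list median. Cthrc1 (2.97) and Fgf18 (2.15) are the highest passing genes and Bambi (-1.74) the lowest.

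Genes most like each member were found by the root mean square difference between log2 profiles over the 9 arrays, each centred on its own mean. For Sfrp2 they were Cdkn2b (0.36), Itm2a (0.40) and Hoxc8 (0.41). Cdkn2b, a cell-cycle inhibitor, read 1182 to 1741 in the null line and 7.17 or less in the wild-type line. For Sfrp1 they were the hyaluronan-degrading protein Cemip (0.20), the angiopoietin receptor Tek (0.20) and Cyp2d22 (0.22). Cemip read 733 to 927 in the null line, 502 on the wild-type GFP array and 2940 to 5256 on the other wild-type arrays. For Dkk2 they were Dock8 (0.26), the kinase Prkg2 (0.29) and Ak4 (0.32), and Prkg2 read 540 to 633 in the null line, 2959 on the wild-type GFP array and 686 to 1881 on the others. Likeness is a description over arrays that share 2 lines.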

How the data were processed

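Total RNA was isolated and labelled with the GeneChip 3' IVT Express kit, per the labels' protocols. The authors deposited 1 intensity per probe set, processed with MAS5 per the submitters' processing notes, and the linear scale was read from the values. The MAS5 version and scaling target are not stated in those sources. Of 45101 probe sets 64 controls were left out. Gene symbols came from the platform annotation, for probe sets with a single symbol, and coordinates from RefSeq GRCm38.p6. Precision is limited by how few arrays there are.

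Signals were taken as log2(signal + 25). A single limma 3.58.1 fit (R 4.3.3) held 5 group means with 4 residual degrees of freedom, moderated variances with an intensity trend, and 6 contrasts. In the split by line each array had equal weight within its line. P-values are two-sided and Benjamini-Hochberg adjusted over 19090 probe sets, at a threshold of 0.05. A group with 1 array took its spread from the groups with more, among them the unlike wild-type GFP and LacZ arrays. All member probe sets were described. From each pathway list up to 4 passing genes of largest change were named, and 3 likeness neighbours for each member that spanned at least 2 log2 units. Apcdd1, which is also on the modulator list, was named through the target list. Members and lists were chosen with earlier results of these data known. Alternatives were offsets of 5 and 100, no signal minimum or one of 200, quantile normalization, a variance model with no trend, a fit of the compared groups alone, 1 mean per line, and each replicate left out. List counts, list medians and changes of list genes with arrays left out, in both comparisons between the lines, and unfiltered values of dim members were added after seeing the data. The procedure was tested on simulated data.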

Additional observations from a re-analysis of the deposited data

Results flagged for a closer look

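Within the 6 wild-type-line arrays, the gap between the extreme array and its nearest neighbour was set against the whole range on the log2 scale for each of the 15 member probe sets, with Dixon's 95% critical value as the limit. The GFP array was lowest and past it at 4 of 5 Sfrp1 probe sets, with 0.703 at 1428136_at, 0.745 at 1416594_at, 0.641 at 1448395_at and 0.687 at 1460187_at, and also at the Frzb probe set 1416658_at, with 0.708. The E824* array was highest for Sfrp4, with 0.701. Chance flags about 1 in 20 such groups, and the Sfrp1 probe sets read the same gene. The wild-type GFP array was not repeated, so construct, culture and array cannot be told apart there.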

How the results depend on the processing

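The Sfrp2 change between the lines kept its call under every alternative run, from 4.94 with an offset of 100 to 6.55 with an offset of 5. With the compared groups alone, 1834 probe sets passed in the null line against control vector, 233 in the reconstituted line against the null line and 0 for truncated PREX2 against control vector. Truncated PREX2 against control vector also gave 0 with an offset of 100 and with no signal minimum, and quantile normalization gave 1 in the reconstitution. Without the intensity trend 3 member probe sets passed by line. With each replicate left out in turn, all probe sets passing ran from 1011 to 4522 in the null line against control vector, from 4332 to 8346 by line, from 0 to 117 for truncated and from 0 to 3 for full-length PREX2 against control vector. Member probe sets passing ran from 1 to 5, from 1 to 7 and, for truncated PREX2, from 0 to 4.

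In the same refits, Sfrp1 in the null line against control vector ran from -2.28 to 0.52 at 1428136_at, -2.40 to 0.32 at 1416594_at, -1.49 to 0.68 at 1448395_at, -2.27 to 0.45 at 1460187_at and -0.999 to 0.81 at 1438620_x_at. For truncated PREX2 it ran from -0.082 to 2.72 at 1428136_at, -0.057 to 2.66 at 1460187_at and -0.15 to 1.66 at 1438620_x_at, and Dkk2 from -2.06 to 0.089. For full-length PREX2 it ran from -0.43 to 2.37 at 1428136_at, -0.51 to 2.20 at 1416594_at and at 1460187_at, -0.53 to 1.64 at 1448395_at and -0.46 to 1.35 at 1438620_x_at, and Dkk2 from -2.07 to 0.076. For truncated against full-length PREX2, Dkk2 ran from -0.39 to 0.24 and was -0.036 after quantile normalization. In the reconstitution, Sfrp1 ran from -0.30 to 0.049 at 1428136_at and -0.17 to 0.31 at 1460187_at, and Sfrp4 from -0.19 to 0.045. Leaving out an array leaves fewer samples; for the other alternatives the cause was not tested. Dim probe sets, near the offset, limit what can be read of Dkk1, Wif1 and Frzb. No paired analysis was possible because the labels give no replicate numbers shared between groups.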

Other observations

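Some other Wnt pathway genes, named after their values were seen, had signals on the wild-type GFP array that lay near or below the null line, as those of Sfrp1 did. Lgr5, an R-spondin receptor and Wnt target, read 590 on the reconstituted array, 711 with GFP and 417 untransduced in the null line, against 54.7 with GFP and 308 to 1105 with the other constructs in the wild-type line. Of the R-spondins, secreted enhancers of Wnt signalling, the 2 with a tested probe set had their lowest signals of the 9 arrays there: Rspo3 read 260 with GFP and 1253 with LacZ, and Rspo2 read 2016 with GFP and 7426 with LacZ. Dcn, a proteoglycan of fibroblasts and no Wnt pathway gene, read 962 with GFP and 21523 with LacZ. For Ccnd1, a cyclin often counted as a Wnt target, the wild-type GFP array was the higher one, with 9785 on GFP and 5618 on LacZ. None of the differences between these arrays was tested, since each is a single array.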
